A study of Homo sapiens with 4 samples.

Results

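The 49 genes described here are very long human genes that mostly encode adhesion molecules, receptors, channel subunits and scaffolds of neurons. They were taken from a fixed list of symbols, and all 49 were found among the 19970 protein-coding genes of chromosomes 1 to 22 and X in the RefSeq table of the same build as the peaks (hg38). Their bodies ran from 0.900 Mb (IMMP2L) to 2.47 Mb (RBFOX1), with a median of 1.34 Mb, and none overlapped another, so that together they covered 70.8 Mb. The rule that lists them uses no peak counts. The measure was the number of peak summits, the positions of highest coverage within the peaks, that fell inside each gene body and per Mb of gene.

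The peaks came from chromatin immunoprecipitation sequencing (ChIP-seq) of cells labelled HSC and described as stem cells and progenitors, grown in medium with fetal bovine and human serum. One ChIP library and its input, which is chromatin that was not immunoprecipitated, came from control cells, and another such pair from cells given transforming growth factor β1 (TGF-β1) at 20 ng/mL for 2 h. The treatment text that the labels of all 4 libraries share also names GDF11 at 100 ng/mL, and no source used here says whether any of these cells received it. No source used here names the antibody or tells how many donors or cultures the cells came from. Peak lists hold no expression, so that the defining markers of the labelled cell type could not be checked. After duplicates were set aside, 36280696 control ChIP tags gave 5307 peaks and 45984282 TGF-β1 ChIP tags gave 15993 peaks. With 1 library per group, no test between conditions was made, and every difference below is between 2 libraries that also differ in other ways. The TGF-β1 ChIP library was 1.27 times as deep, its input was shallower (46802425 against 66537905 tags), its tags were 43 bp against 60 bp long, and its estimated fragments 136 bp against 148 bp. Intervals are 95% intervals for counting error only.

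Genes of this length are often, though not always, transcribed mainly in neurons and, for some members, in muscle, retina or epithelia, and most of each gene is intron. Many lie in gene-poor, late-replicating chromatin, and several span common fragile sites, regions that break when replication is slowed. Their proteins join cells to one another (cadherins, contactins, neurexins), receive guidance cues (ROBO receptors), or anchor channels and receptors at synapses (DLG2, MAGI2). The question here was whether such genes held more or fewer summits per Mb than the rest of the genome.

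TGF-β1 summits in these genes were about as frequent as in the rest of the genome outside the bins densest in peaks. They were less frequent where those bins were kept. The control rate was above, near or below the rest, depending on the sequence taken as background and the peaks kept. The 49 genes held 90 control summits, or 1.27 per Mb (1.02 to 1.56), and 274 TGF-β1 summits, or 3.87 per Mb (3.42 to 4.35). The background was the rest of chromosomes 1 to 22 and X outside dense bins, meaning 1 Mb bins that held 20 or more peaks of both lists together (65 bins, none touching any of the 49 genes). Its rates were 1.07 control summits per Mb (1.03 to 1.11) and 3.82 TGF-β1 summits per Mb (3.75 to 3.89), computed with the 49 genes included, which made up 2.39% of that sequence. The rate in the 49 genes was 1.19 times the background in the control list (0.954 to 1.47) and 1.01 times in the TGF-β1 list (0.894 to 1.14). Both intervals include 1. The control interval did not include 1 where bins with 10 or more peaks counted as dense (1.33, 1.07 to 1.65) or where peaks over high local background were left out (1.25, 1.00 to 1.54). Both settings could only raise the ratio. The first took bins out of the background alone and kept the 49 genes whole. Parts of at least CCSER1, CDH12, MACROD2 and CNTNAP2 lay in such bins. The second removed none of the 90 control peaks in the 49 genes and so only lowered the background. At the background rates, 75.6 control and 271 TGF-β1 summits would have lain in these genes. Where the dense bins were kept in the background, the ratios lay on the other side of 1. They were 0.793 for control (0.637 to 0.977) and 0.744 for TGF-β1 summits (0.658 to 0.838), since those bins held 26.0 control and 68.0 TGF-β1 summits per Mb. The ratio for control peaks with a fold of at least 4 was 1.69 (1.19 to 2.35, 37 summits), and for TGF-β1 peaks of that fold it was 1.09 (0.883 to 1.32, 101 summits). With a −log10 q of at least 5 it was 1.01 for control peaks (0.576 to 1.66, 16 summits) and 0.912 for TGF-β1 peaks (0.663 to 1.22, 45 summits). Counting bins as dense from 50 peaks gave 1.08 for control (0.863 to 1.33) and 0.953 for TGF-β1 summits (0.843 to 1.07).

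**Figure D1:**
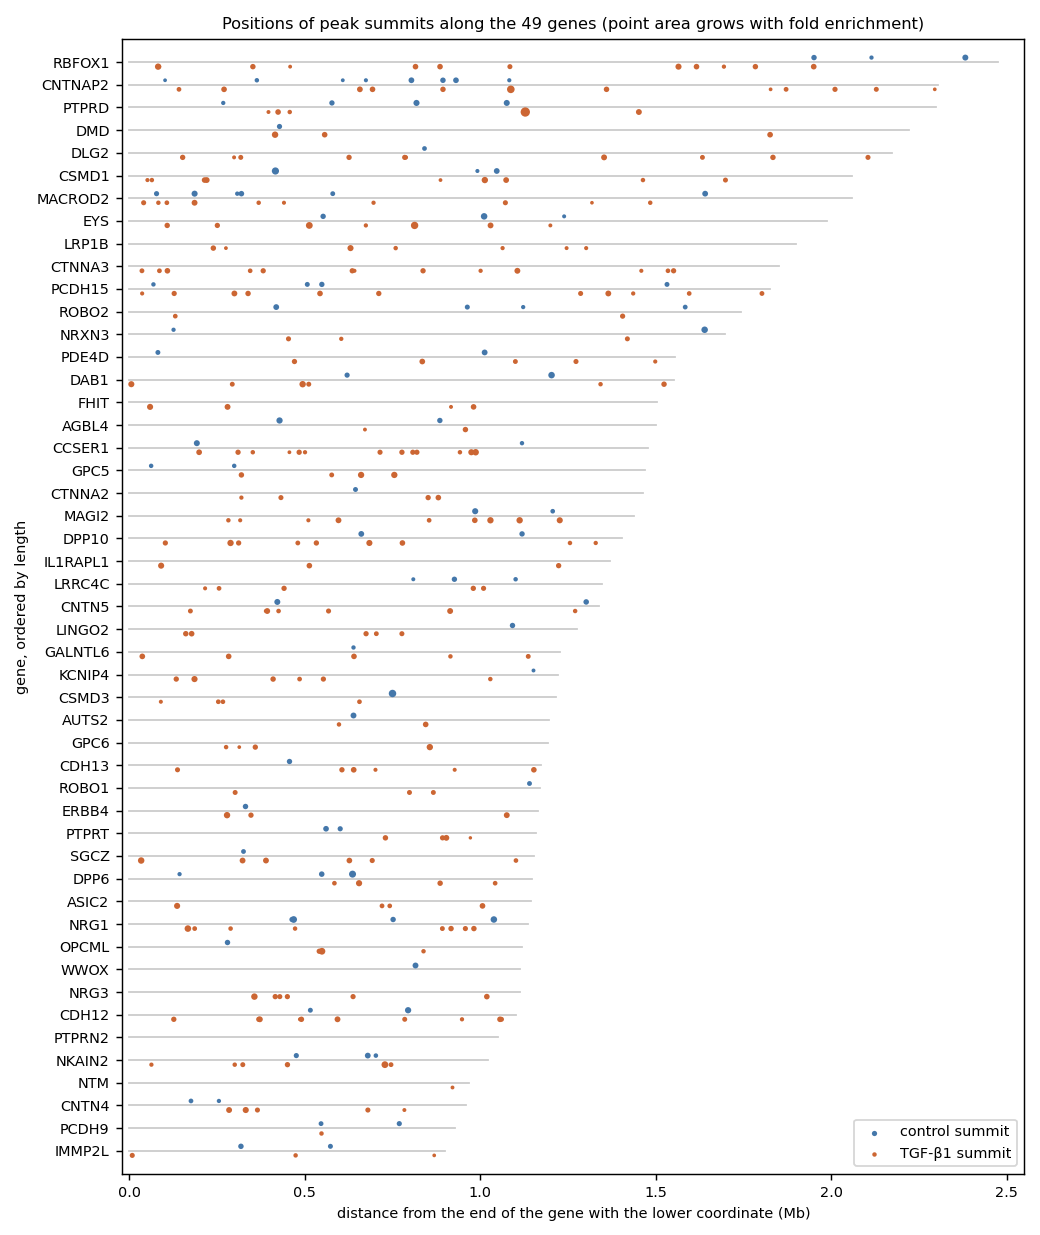
Each grey line is 1 of the 49 genes, drawn from its end with the lower coordinate and measured in Mb, with control summits in blue above the line and TGF-β1 summits in orange below it, and point area growing with the fold enrichment of the peak. Summits of both lists lay along whole gene bodies, from 8 control and 12 TGF-β1 summits in CNTNAP2 to none of either list in PTPRN2.

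Neighbouring sequence and other long genes gave rates of the same order. In the 500 kb on each side of the 49 genes, the rate was 1.44 control summits per Mb (1.11 to 1.82) and 4.41 TGF-β1 summits per Mb (3.83 to 5.05), with both intervals starting just above the background rate. The 77 other protein-coding genes of 0.8 Mb or more held 1.04 control summits per Mb (0.819 to 1.29) and 4.42 TGF-β1 summits per Mb (3.96 to 4.92), the second of which lies above the background rate. The 49 genes thus had 1.23 times the control rate of these other long genes (0.896 to 1.68) and 0.875 times their TGF-β1 rate (0.743 to 1.03), with both intervals including 1. Bodies of all other protein-coding genes held 1.00 control and 3.93 TGF-β1 summits per Mb. Against them the control ratio was 1.27 (1.01 to 1.57), an interval that lies just above 1, and the TGF-β1 ratio was 0.985 (0.869 to 1.11). Sequence outside protein-coding genes held 1.10 and 3.75 summits per Mb.

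**Figure D2:**
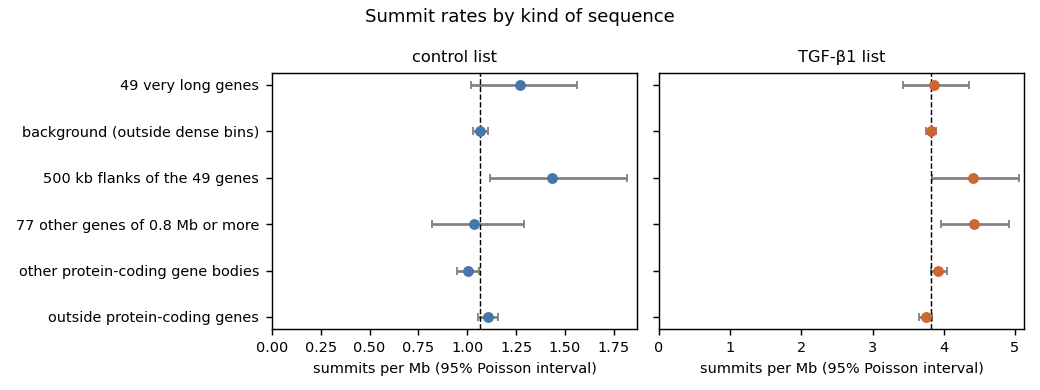
Summits per Mb, with 95% Poisson intervals, in the 49 genes and in 5 other kinds of sequence, for the control list (left) and the TGF-β1 list (right), with the background rate dashed. The interval of the 49 genes includes the background rate in both lists, at 1.27 against 1.07 and at 3.87 against 3.82 summits per Mb.

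Nearly every one of these genes held a summit, as genes of such length did in general. A TGF-β1 summit lay in 47 of the 49 genes (95.9%), against 15.9% of all protein-coding genes and 96.1% of the 77 other long genes. A control summit lay in 40 (81.6%), against 5.52% of all protein-coding genes and 64.9% of the other long genes. Both lists had a summit in 39 (79.6%), against 3.05% and 63.6%. The median gene had 2 control and 5 TGF-β1 summits, and the median rates were 1.21 control and 3.52 TGF-β1 summits per Mb. Over the 77 other long genes the medians were 1.10 and 4.37, and over all protein-coding genes both were 0. The other long genes were shorter than the 49, with a median of 0.912 Mb.

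Longer members held more summits. Across the 49 genes, length and count had a Pearson correlation of 0.46 and a Spearman correlation of 0.31 in the control list, and 0.53 and 0.45 in the TGF-β1 list. These are descriptions across genes that share libraries, and genes are not independent replicates. Per Mb, the 24 shorter members held 1.16 control (0.785 to 1.64) and 3.69 TGF-β1 summits (3.0 to 4.49), and the 25 longer members 1.34 (1.02 to 1.73) and 3.98 (3.41 to 4.61), with overlapping intervals in each list. The rates of the 2 lists had a Spearman correlation of 0.28 across the 49 genes, and the counts behind them are small.

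**Figure D3:**
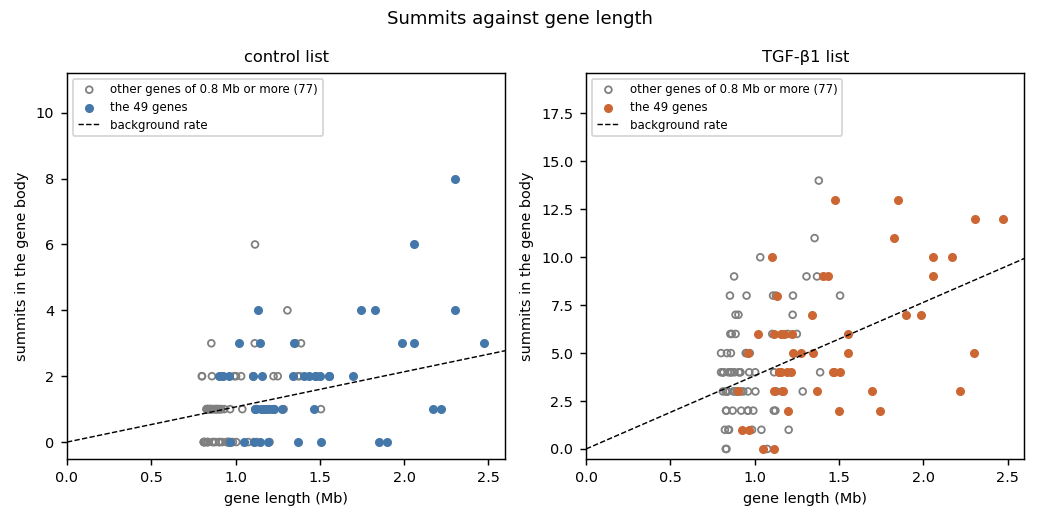
Number of summits in the gene body against gene length in Mb for the 49 genes (filled) and the 77 other protein-coding genes of 0.8 Mb or more (open), with the dashed line giving the count at the background rate. The 49 genes lie on both sides of the line, 26 above and 23 below it in the control list and 22 above and 27 below it in the TGF-β1 list.

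Few members stood away from the shared rate. In the TGF-β1 list the interval of CDH12 and of CCSER1 lay above the rate of all 49 genes together, and that of WWOX and of PTPRN2 below it. In the control list CNTNAP2 lay above it and none lay below it. A TGF-β1 rate of at least 2 times the background was reached by the same 2 genes, CDH12 and CCSER1, or 4.08% of the 49, against 10.6% of all protein-coding genes and 10.4% of the other long genes. A control rate of at least 2 times the background was reached by 10 members (20.4%), against 4.81% of all protein-coding genes and 13% of the other long genes. These were NRG1, CNTNAP2, NKAIN2, MACROD2, DPP6, ROBO2, LRRC4C, IMMP2L, PCDH15 and PCDH9. Most of the 10 rest on 2 to 4 summits, and for all but CNTNAP2 and MACROD2 the interval includes the background rate. The shares of all protein-coding genes are not a like comparison, since their median length was 0.0242 Mb. In most of them 1 summit was enough to pass either limit. Higher rates occurred among the other long genes, of which ADGRL3 held 10.3 and SOX5 9.68 TGF-β1 summits per Mb, and CADM2 5.38 control summits per Mb.

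**Figure D4:**
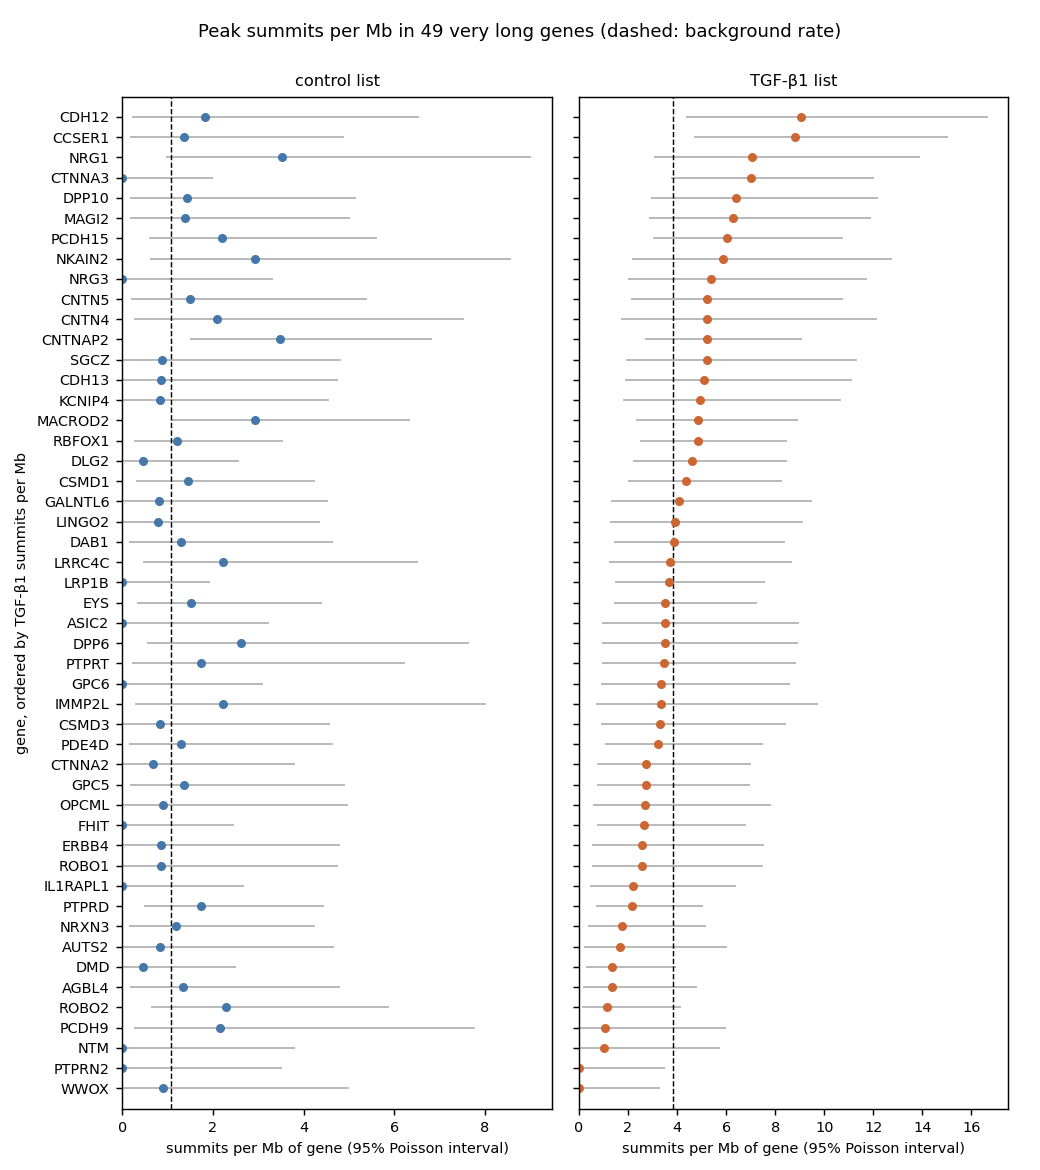
Summits per Mb in each of the 49 genes, ordered by the TGF-β1 rate, with 95% Poisson intervals in grey and the background rate dashed, for the control list (left) and the TGF-β1 list (right). The TGF-β1 rates run from 0 in WWOX and PTPRN2 to 9.07 in CDH12, and most intervals cross the dashed line.

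The cadherins, protocadherins and α-catenins, which build and anchor cell-cell junctions, held 10 control and 45 TGF-β1 summits in 6 genes. Their TGF-β1 rate of 5.39 per Mb (3.93 to 7.22) was the highest of the groups, with an interval just above the background rate, and their control rate was 1.20 per Mb (0.575 to 2.2). CDH12, a type II cadherin of the brain (chromosome 5, 21750673 to 22853344), held 2 control summits, or 1.81 per Mb (0.220 to 6.55), and 10 TGF-β1 summits, or 9.07 per Mb (4.35 to 16.7). Of its TGF-β1 summits, 6 lay in 3 pairs that were 2.94, 4.22 and 4.24 kb apart, whereas the median gap between neighbouring TGF-β1 summits over the 49 genes was 150 kb. Its peak of highest fold was a control peak (22544628 to 22544808, fold 5.02).

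CTNNA3, the αT-catenin of heart muscle and testis (chromosome 10, 65912523 to 67763594), held 13 TGF-β1 summits and no control summit. The TGF-β1 rate was 7.02 per Mb (3.74 to 12), and the control count of 0 allows up to 1.62 per Mb. The control share of its 13 summits was 0% (0% to 22.8%), an interval that includes the 21.8% of the background. One of the 13 (67371010 to 67371145, pileup 45, fold 2.75) was the only peak in the 49 genes over high local background, meaning more than 5 times the genome-wide value. PCDH15, a protocadherin of the tip links of hair cells, held 4 control and 11 TGF-β1 summits, or 2.19 and 6.03 per Mb. PCDH9, a protocadherin of the nervous system, held 2 control summits and 1 TGF-β1 summit. CDH13, the membrane-anchored T-cadherin, held 1 and 6, and CTNNA2, the αN-catenin of neurons, 1 and 4.

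The contactins, CNTNAP2 and NRXN3, which hold axons and synapses to their partners, had 14 control and 27 TGF-β1 summits. Their control rate of 2.22 per Mb (1.22 to 3.73) was the highest of the groups, and 8 of the 14 lay in CNTNAP2. CNTNAP2, which encodes CASPR2 and helps to cluster potassium channels beside the node of Ranvier, spans chromosome 7, 146116801 to 148420998. It held 8 control summits, or 3.47 per Mb (1.5 to 6.84), and 12 TGF-β1 summits, or 5.21 per Mb (2.69 to 9.10). Control summits were 40.0% of its summits (21.9% to 61.3%), just above the 21.8% of the background. All 8 control summits lay between 146218330 and 147199300, before the middle of the gene as the coordinates run, while TGF-β1 summits lay along the whole gene. Its peak of highest fold was a TGF-β1 peak (147203414 to 147203626, pileup 22, fold 6.94, −log10 q 10.5), which ranked 24 by fold in that list.

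CNTN4 and CNTN5 are contactins that bind to amyloid precursor protein family members. The intervals of both genes were wide and included the background rate in each list. CNTN5 held 2 control and 7 TGF-β1 summits (1.49 and 5.23 per Mb), and CNTN4 held 2 and 5 (2.09 and 5.21 per Mb). NRXN3, a neurexin of presynaptic terminals, held 2 and 3 summits. One of its control peaks (chromosome 14, 79809222 to 79809389) had a fold of 5.35.

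The neuregulins NRG1 and NRG3 and their receptor ERBB4, which signal in nerve, glia and heart, had 5 control and 17 TGF-β1 summits, or 1.47 (0.476 to 3.42) and 4.99 (2.90 to 7.98) per Mb. NRG1 (chromosome 8, 31639245 to 32774046) had the highest control rate of the 49, with 4 summits or 3.52 per Mb (0.960 to 9.03), and 8 TGF-β1 summits or 7.05 per Mb (3.04 to 13.9). Both intervals include the background rates. The strongest NRG1 peaks were a control peak (32107134 to 32107281, fold 5.66) and a TGF-β1 peak (31805667 to 31805881, fold 5.43), which lay apart in the gene. NRG3 had no control summit and 6 TGF-β1 summits, or 5.40 per Mb (1.98 to 11.7), and the interval of its control share (0% to 39.0%) includes that of the background. ERBB4 held 1 control and 3 TGF-β1 summits.

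Ion channel genes and those of their auxiliary subunits held 9 control and 29 TGF-β1 summits, or 1.52 (0.693 to 2.88) and 4.89 (3.27 to 7.02) per Mb. DPP10, an auxiliary subunit of Kv4 potassium channels, held 2 control and 9 TGF-β1 summits (6.41 TGF-β1 summits per Mb, 2.93 to 12.2). NKAIN2, which interacts with the sodium pump, held 3 and 6, or 2.94 (0.605 to 8.58) and 5.87 (2.15 to 12.8) per Mb. DPP6, the relative of DPP10 with the same role, held 3 and 4. Its control peak of highest fold (chromosome 7, 154383765 to 154383951, fold 6.02) ranked 25 in the control list, and its TGF-β1 peak of highest fold (154402366 to 154402555, pileup 33, fold 4.93, −log10 q 10.3) lay in the same part of the gene without overlap. KCNIP4, a calcium sensor of Kv4 channels, held 1 and 6 summits, and ASIC2, a proton-gated sodium channel, 0 and 4.

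The scaffolds DLG2 and MAGI2, which gather receptors and channels under the synaptic membrane, held 3 control and 19 TGF-β1 summits, or 0.831 (0.171 to 2.43) and 5.26 (3.17 to 8.22) per Mb. MAGI2 held 2 control and 9 TGF-β1 summits, or 6.26 TGF-β1 summits per Mb (2.86 to 11.9), and 2 of its TGF-β1 peaks had folds above 5 (5.17 and 5.13). DLG2 held 1 and 10, with all folds between 2.61 and 4.57.

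Receptor phosphatases, guidance receptors and IgLON proteins had the lowest TGF-β1 rates. PTPRD, PTPRT and PTPRN2 held 6 control and 9 TGF-β1 summits (1.33 and 2.00 per Mb), the receptors ROBO1 and ROBO2, which read the SLIT guidance cues, 5 of each (1.72 per Mb in each), and the IgLON genes OPCML and NTM 1 and 4 (0.480 and 1.92 per Mb). All of these TGF-β1 intervals reach the background rate except that of the receptor phosphatases (0.913 to 3.79), which ends just under it. PTPRN2, an insulin secretory granule protein (chromosome 7, 157539056 to 158587823), had no summit in either list, which allows up to 2.86 per Mb. ROBO2 (chromosome 3, 75906675 to 77649964) was 1 of 3 members with more control than TGF-β1 summits, at 4 and 2, and control summits were 66.7% of its summits (30.0% to 90.3%). The others were PCDH9 and WWOX, and in 44 members TGF-β1 summits were the more numerous. NTM held no control summit and 1 TGF-β1 summit, and OPCML 1 and 3. PTPRT, a receptor phosphatase of the brain, held 2 and 4, and ROBO1 1 and 3.

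PTPRD, a synapse-organising receptor phosphatase (chromosome 9, 8314246 to 10613002), held 4 control and 5 TGF-β1 summits, or 1.74 (0.474 to 4.46) and 2.18 (0.706 to 5.08) per Mb. Its peak at 9442093 to 9442239 had the highest fold of the whole TGF-β1 list (9.88, pileup 38, −log10 q 23.3). The other 4 TGF-β1 peaks of the gene had folds between 2.61 and 4.56, and the 4 control peaks between 2.88 and 4.83. The peak lay wholly inside RN7SL5P (9441998 to 9442310, 313 bp), a pseudogene of the RNA of the signal recognition particle that sits within PTPRD. Such pseudogenes have many near-identical copies in the genome, so the place of these reads is uncertain, and whether that had a part in the fold was not tested. It was the only one of the 364 summits in the 49 genes inside such a small-RNA gene.

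CSMD1 and CSMD3, large membrane proteins with complement-control domains, held 4 control and 13 TGF-β1 summits (1.22 and 3.97 per Mb). They carried the 2 control peaks of highest fold among the 49 genes. The CSMD3 peak (chromosome 8, 112970719 to 112971040, pileup 22, fold 6.72, −log10 q 10.4) ranked 2 in the control list, and the CSMD1 peak (3351267 to 3351414, fold 6.29) ranked 16. Neither overlapped a TGF-β1 peak. LRRC4C, LINGO2 and IL1RAPL1, adhesion proteins of the synapse, held 4 control and 13 TGF-β1 summits together (1.00 and 3.26 per Mb). LRRC4C held 3 and 5 of these, or 2.23 control summits per Mb (0.460 to 6.52), LINGO2 held 1 and 5, and IL1RAPL1 0 and 3. The glypican genes GPC5 and GPC6, whose products are heparan sulfate proteoglycans that bind growth factors, held 2 and 4 and 0 and 4 summits.

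DMD, which encodes dystrophin (chromosome X, 31119222 to 33339388), held 1 control and 3 TGF-β1 summits, or 0.450 (0.0114 to 2.51) and 1.35 (0.279 to 3.95) per Mb. SGCZ, a sarcoglycan of the dystrophin complex, held 1 and 6. LRP1B, a large LDL receptor family member, held 0 control and 7 TGF-β1 summits (3.69 per Mb, 1.48 to 7.59). DAB1, the adaptor that carries the reelin signal, held 2 and 6, with folds of up to 5.37 among control and 5.23 among TGF-β1 peaks.

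The remaining 11 genes, enzymes, RNA regulators and others, held 23 control and 63 TGF-β1 summits, or 1.35 (0.858 to 2.03) and 3.71 (2.85 to 4.74) per Mb. CCSER1, a little-studied coiled-coil protein (chromosome 4, 90127394 to 91605295), held 2 control and 13 TGF-β1 summits, and its TGF-β1 rate of 8.80 per Mb (4.68 to 15.0) was the second highest of the 49. All 13 lay between 90325974 and 91113968, with folds of 2.48 to 5.27. MACROD2, an ADP-ribose hydrolase, held 6 control summits or 2.92 per Mb (1.07 to 6.35) and 10 TGF-β1 summits or 4.86 per Mb (2.33 to 8.94). EYS, an extracellular protein of photoreceptors, held 3 and 7 summits. Its TGF-β1 peak at chromosome 6, 64532391 to 64532607 (pileup 25, fold 6.59, −log10 q 11.1) ranked 46 in that list. RBFOX1, a splicing regulator of neurons and muscle, held 3 and 12 summits, or 1.21 and 4.85 per Mb.

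WWOX and FHIT are tumour suppressor genes at fragile sites. WWOX (chromosome 16, 78099654 to 79212667) held 1 control summit (fold 4.56) and no TGF-β1 summit, which allows up to 2.70 TGF-β1 summits per Mb. FHIT held no control and 4 TGF-β1 summits, the latter 2.66 per Mb (0.725 to 6.81), and its interval includes the background rate in each list. IMMP2L, a mitochondrial inner membrane peptidase, held 2 control summits, or 2.22 per Mb (0.269 to 8.03), and 3 TGF-β1 summits. PDE4D, a cAMP phosphodiesterase, held 2 and 5, and AGBL4, a cytosolic carboxypeptidase, 2 and 2. GALNTL6, of the family that adds GalNAc sugars to proteins, held 1 and 5, and AUTS2, a regulator of neuronal development, 1 and 2. The 13 members often described in common fragile sites had 25 control summits, or 1.14 per Mb (0.740 to 1.69), and 93 TGF-β1 summits, or 4.26 per Mb (3.43 to 5.21). The other 36 members had 65 and 181, or 1.33 (1.02 to 1.69) and 3.70 (3.18 to 4.27) per Mb. The intervals overlap in each list.

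Between the libraries, the 49 genes held 3.04 times as many TGF-β1 as control summits (2.39 to 3.91). The ratio was 3.58 over the background (3.44 to 3.73) and 4.27 in the other long genes (3.33 to 5.54), and the intervals overlap. Control summits were 24.7% of the summits in the 49 genes (20.6% to 29.4%), against 21.8% in the background. Among the 48 members with any summit, this share had an interval above the background share in CNTNAP2 and ROBO2 and an interval below it in none. The 9 members without a control summit were ASIC2, CTNNA3, FHIT, GPC6, IL1RAPL1, LRP1B, NRG3, NTM and PTPRN2, and for each of the 9 the control interval reaches the background rate. With lists of equal length by fold, the ratio was 1.37 in the 49 genes (1.03 to 1.81) and 1.399 in the background (1.34 to 1.46).

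The 2 lists seldom marked the same place. Of the 90 control peaks in these genes 3 overlapped a TGF-β1 peak, or 3.33% (1.14% to 9.35%), and 3 of the 274 TGF-β1 peaks met a control peak, or 1.09% (0.373% to 3.17%). Outside the dense bins and these genes the shares were 2.99% and 0.832%, and in dense bins 38.3% and 14.7%. The shared places lay in MACROD2, PCDH9 and SGCZ. In MACROD2 (chromosome 20) the control peak 14181067 to 14181256 had a fold of 4.79 and the TGF-β1 peak 14181004 to 14181165 a fold of 4.56. In SGCZ (chromosome 8) the control peak 14407109 to 14407307 had a fold of 3.36 and the TGF-β1 peak 14407126 to 14407297 a fold of 4.52. In PCDH9 (chromosome 13) the control peak 66848746 to 66848933 had a fold of 3.41 and the TGF-β1 peak 66848665 to 66848811 a fold of 3.04, and both also lay in the antisense gene PCDH9-AS2. A further pair in CNTNAP2, a control peak at 147010005 to 147010172 and a TGF-β1 peak at 147010202 to 147010338, lay side by side without overlap.

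Other members with a TGF-β1 peak of high fold were NKAIN2 (chromosome 6, 124531693 to 124531900) and OPCML (chromosome 11, 132963410 to 132963546), each at 5.73. They were followed by SGCZ (chromosome 8, 14118239 to 14118406) at 5.29, NRG3 (chromosome 10, 82231169 to 82231378) and CCSER1 (91113827 to 91113968) at 5.27, and DMD (31534125 to 31534325) at 5.23. In the control list EYS reached 5.35 (chromosome 6, 64730496 to 64730650) and AGBL4 5.02 (chromosome 1, 48950178 to 48950355). MAGI2 (chromosome 7, 79002106 to 79002311) and PTPRD (chromosome 9, 9132106 to 9132273) reached 4.83. Of all 364 peaks in the 49 genes, 26 also lay inside another annotated gene, so that they cannot be given to the member alone.

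The peaks in these genes were close in size to peaks elsewhere outside the dense bins. Median length was 176.5 bp in the control list and 161 bp in the TGF-β1 list, against 172 and 159 bp. Median fold was 3.84 in the control list and 3.80 in the TGF-β1 list, against 3.53 and 3.64 outside the dense bins and these genes. Median pileup was 17 and 16 tags, against 19 and 17. The median local background, the caller's expected number of tags at the summit, was 3.82 and 3.90 tags, against 4.44 and 3.93. In the 77 other long genes it was 3.82 and 3.93, so that the lower control value was not particular to the 49 genes. Of the control peaks in the 49 genes 0 of 90 lay over high local background (which allows up to 3.33%), and of the TGF-β1 peaks 1 of 274, against 5.11% and 1.51% elsewhere outside the dense bins and 2.56% and 0% in the other long genes. Folds of at least 5 were held by 10 control peaks (11.1%, 6.15% to 19.3%) and 21 TGF-β1 peaks (7.66%, 5.07% to 11.4%), against 7.22% and 7.16% elsewhere outside the dense bins. In the 77 other long genes these shares were higher, at 16.7% (10.01% to 26.5%) and 9.31% (6.64% to 12.9%), with intervals that overlap those of the 49 genes. A −log10 q of at least 5 was held by 16 and 45 peaks, or 17.8% and 16.4%, against 21.0% and 18.3% elsewhere and 29.5% and 18.3% in the other long genes.

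**Figure D5:**
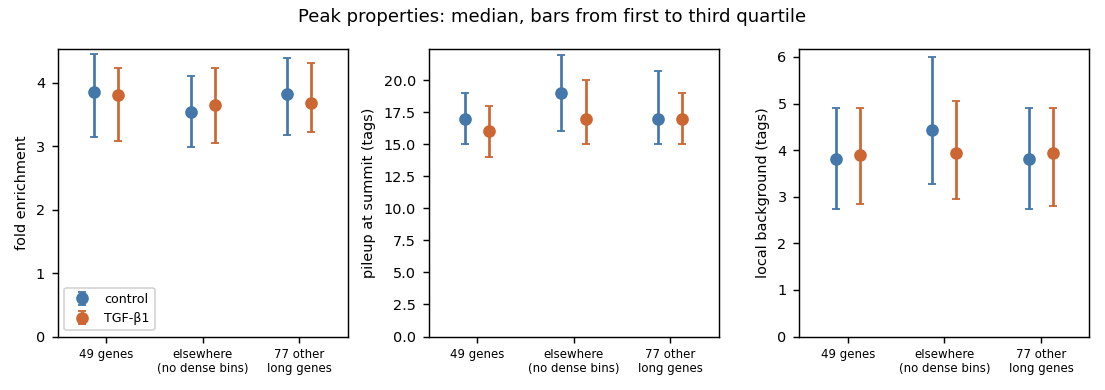
Median (points) and lower to upper quartile (bars) of fold enrichment, pileup in tags and local background in tags for peaks in the 49 genes, elsewhere outside the dense bins, and in the 77 other long genes, with the control list in blue and the TGF-β1 list in orange. The control peaks of the 49 genes had a median local background of 3.82 tags, against 4.44 elsewhere.

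Summits were not gathered at the gene starts. RefSeq starts were listed for 41 of the 49 genes (105 starts, alternative ones included). No peak of either list overlapped a window from 250 bases before to 50 bases after a start. Within 10 kb of a listed start lay 1 of 77 control summits of these 41 genes (1.30%, 0.230% to 7.0%) and 5 of 229 TGF-β1 summits (2.18%, 0.936% to 5.01%), where 2.56% of the gene bodies lie within that distance. Within 100 kb the shares were 20.8% and 21.8%, against 21.8% of the gene bodies. The median distance to the nearest start was 327 kb for control and 325 kb for TGF-β1 summits, against 295 kb for evenly spaced positions in the same genes. From the 5′ to the 3′ end, 5 stretches of equal relative length held 17, 15, 17, 19 and 9 control summits and 38, 63, 41, 43 and 44 TGF-β1 summits. The second stretch held 27.5% of the TGF-β1 summits (22.1% to 33.6%), and 19.5% of the control summits (12.2% to 29.7%), where an even spread gives 1 in 5.

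The starts with the nearest summits belonged to GPC5, DPP6 and PTPRD, and their upstream sequences are shown because these 3 genes held every listed start with a summit of either list within 5 kb. For GPC5 a TGF-β1 summit lay 2.75 kb before the outer start and so outside the gene body (peak 91395798 to 91395933, fold 2.88). For DPP6 a control summit lay 3.68 kb from an inner start and 3.97 kb from the neighbouring start at 153887042 (peak 153890998 to 153891154, fold 2.86), and only the first of these starts is shown, and for PTPRD a TGF-β1 summit 3.87 kb from an inner start (peak 8737752 to 8737887, fold 4.22). Each sequence is the 250 bases before the start, 5′ to 3′ on the strand of the gene, from RefSeq GRCh38.p14. Capitals mark CAGAC or its reverse complement GTCTG, the short core that SMAD proteins, the transcription factors of the TGF-β pathway, can bind.
GPC5 (chr13:91398371-91398620, + strand): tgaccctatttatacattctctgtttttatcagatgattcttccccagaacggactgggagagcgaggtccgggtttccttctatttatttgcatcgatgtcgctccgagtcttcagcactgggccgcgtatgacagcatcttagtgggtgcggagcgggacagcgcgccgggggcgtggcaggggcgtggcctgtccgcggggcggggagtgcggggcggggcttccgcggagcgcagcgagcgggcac
DPP6 (chr7:153887084-153887333, + strand): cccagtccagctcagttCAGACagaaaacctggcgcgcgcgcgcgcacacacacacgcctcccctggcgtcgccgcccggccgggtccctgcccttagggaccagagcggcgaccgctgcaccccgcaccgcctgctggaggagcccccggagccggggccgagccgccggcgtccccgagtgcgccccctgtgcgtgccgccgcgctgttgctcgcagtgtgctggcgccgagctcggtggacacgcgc
PTPRD (chr9:8733947-8734196, − strand): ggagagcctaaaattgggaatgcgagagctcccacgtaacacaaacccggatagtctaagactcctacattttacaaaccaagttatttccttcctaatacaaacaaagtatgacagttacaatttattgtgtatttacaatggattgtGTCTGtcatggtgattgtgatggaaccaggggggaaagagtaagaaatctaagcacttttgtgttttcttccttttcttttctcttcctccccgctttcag
The GPC5 sequence held 0 such cores and those of DPP6 and PTPRD held 1 each. Over the 105 starts of these genes, 38.1% of the 250-base windows held the core on either strand (29.4% to 47.6%), and over all 35116 listed starts 38% did. GC content was 62.4%, 76.0% and 39.6% in the 3 sequences, and its median was 54.0% over the 105 starts and 58.0% over all starts.

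Relatives of these genes had fewer TGF-β1 summits per control summit than the background. The 105 other genes of the same families, such as the remaining cadherins, contactins, glypicans and receptor phosphatases, covered 26.7 Mb with a median length of 0.125 Mb, and none touched a dense bin. A control summit lay in 29 of the 105 and a TGF-β1 summit in 34, with a median of 0 in each list. They held 40 control summits, or 1.5 per Mb (1.07 to 2.04), and 79 TGF-β1 summits, or 2.96 per Mb (2.34 to 3.68). TGF-β1 summits were thus 1.98 times as many as control summits (1.33 to 2.97), against 3.58 times in the background and 3.04 times in the 49 genes, whose interval (2.39 to 3.91) overlaps that of the relatives. In the 9 of these genes that were 0.8 Mb or longer the rates were 1.4 (0.743 to 2.39) and 3.01 (2.00 to 4.35) per Mb.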

How the data were processed

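ChIP-seq was run on 4 libraries, a ChIP and an input library for control and for TGF-β1-treated cells. Per the submitters' processing notes, the authors used Bowtie2, hg38 and MACS2 2.1.0, whereas the file headers name MACS 2.2.7.1. Per the file headers, each ChIP library was set against the matching input with a q-value threshold of 0.05, keeping 1 tag per position. The deposited pileup is a coverage signal at the summit, after scaling of the larger dataset towards the smaller. The deposited fold enrichment is a ratio, taken here as (pileup + 1) over (local background + 1). The −log10 q-value and −log10 p-value are also deposited by the authors. These values belong to single peaks, and positions are counted from 1 as deposited.

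The list of genes, their roles, the related lists and the comparisons were chosen with earlier results of these data known. Gene bodies came from the RefSeq GRCh38.p14 table, matched by symbol. Each chromosome was taken to end at the highest position in the gene table or peak lists, and gaps in the assembly were kept. Local background was computed from pileup and fold. Poisson intervals of counts and intervals of ratios of 2 counts are exact, and shares have Wilson intervals. A count of 0 is given with the limit that 3 counts allow. Reads without molecular identifiers are not independent molecules, so that intervals cover counting error only. Counting was tested on simulated summits. Genes named in full were those with the 10 highest rates in each list, the 5 lowest TGF-β1 rates, a count of 0, a shared peak or the highest folds. Other genes were named only among the 5 highest rates of the other long genes. Exons, introns and the sequence under the peaks were not analysed here. Python 3.11.15, pandas 2.3.3 and scipy 1.17.1 were used. Some items are not reported here.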

Additional observations from a re-analysis of the deposited data

How the results depend on the processing

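Of 50 values that other settings could move, 36 stayed within 1.5 times the count or within the interval of the ratio. Among peaks whose −log10 q was 5 or more, the 49 genes held 16 control and 45 TGF-β1 summits, and 15 and 30 of the genes held one. With a fold of at least 4 they held 37 and 101 summits, 26 genes held a control summit, and the control rate was 1.69 times the background. With lists of equal length by fold, the TGF-β1 count was 123, its rate 1.16 times the background and the ratio of TGF-β1 to control summits 1.37, against 1.399 in the background. That setting keeps the whole control list, so that its 3 control values were fixed and are not counted. With dense bins kept in the background, the ratios to it were 0.793 (control) and 0.744 (TGF-β1), and with other genes of 0.8 Mb or more as background the TGF-β1 ratio was 0.875. The interval of the control ratio lay above 1 in 4 settings, namely a fold of at least 4, dense bins from 10 peaks (1.33), low local background only (1.25) and other gene bodies as background (1.27), and below 1 with dense bins kept. Dense bins from 10 peaks and low local background could only raise it, as they removed sequence or control peaks from the background but not from the 49 genes. The control ratio was 1.01 with a −log10 q of at least 5 and 1.08 with dense bins from 50 peaks, and both intervals include 1. The interval of the TGF-β1 ratio lay above 1 in 0 settings and below 1 with dense bins kept. The settings by q and by fold keep fewer peaks by construction. Leaving out of the background the 199 bins without any peak, which may hold assembly gaps (not checked), was chosen after seeing the data and gave 1.11 and 0.946. Peaks with a reciprocal overlap of at least 50% numbered 2, and summits within 500 bp of each other 4 in each list. No paired analysis was possible because each group had 1 library. With a median of 2 control summits per gene, differences between single genes of less than several-fold were not detectable at this depth.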
